A study of Mus musculus with 24 samples.

Results

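Sites of altered chromatin accessibility that were listed at 2 times after loss of Daxx are described here. The authors deposited a table of sites that differed between Daxx-KO and Daxx-WT long-term haematopoietic stem cells (LT-HSCs) at 3 days post induction (d.p.i.) and a table of sites that differed between Daxx-KO and Daxx-WT KLS cells (c-Kit+ Lin- Sca-1+ stem and progenitor cells) at 3 weeks post induction (w.p.i.). A member was any site of the first table that shared at least 1 bp with a site of the second. There were 699 members among 11927 LT-HSC sites, or 5.86%, and they met 693 of the 17311 KLS sites. The direction at each time was the sign of the log2 ratio of the Daxx-KO mean over the Daxx-WT mean, with 1 added to both. The members were therefore selected on the measured values of both tables, and their ratios and directions are given as a description, without a test.

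The measurements came from ATAC-seq, in which Tn5 transposase cuts accessible DNA and inserts sequencing adapters. LT-HSCs at 3 d.p.i. had 3 Daxx-KO libraries (Daxx F/F, Cre +/-) and 2 Daxx-WT libraries (Daxx +/+, Cre +/-), and the same genotypes gave 3 and 2 libraries of KLS cells at 3 w.p.i. A further KLS group, DKO, had 2 libraries of mice that also had both alleles of Pu.1 floxed (Pu.1 F/F). All mice were C57BL/6 and all, controls included, carried an inducible Cre. The labels give both LT-HSC controls as Daxx +/+, but a legend of the study includes a Daxx +/F control at this time, so an LT-HSC control may be heterozygous for the floxed allele. The labels do not name the Cre driver. In the study's methods the genomic analyses at 3 d.p.i. are tied to RosaCreER, which acts in all cells after tamoxifen, and the DKO mice to Mx1Cre, which is induced by pI:pC through the interferon response. Mx1Cre also drove the deletion in KLS cells taken for RNA at 3 w.p.i., and the driver of the KLS cells used for ATAC-seq is not named separately. Time and sorted population differ together between the tables, and Cre driver and inducing agent may differ with them, so their effects cannot be told apart. Because sorted cells were measured in bulk, a change in the share of cells with an open site and a change within each cell cannot be told apart either.

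Daxx is a chaperone that deposits the histone variant H3.3 together with Atrx, mainly at heterochromatin, telomeres and repeated elements. Pu.1, encoded by Spi1, is an ETS transcription factor that drives the myeloid fate, whereas Runx and Gata factors bind regulatory elements of stem cells and of several blood lineages. LT-HSCs sustain blood formation for life, and the KLS population holds them together with the multipotent progenitors that they give rise to.

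Reference sequence at the centre of the stretch shared by both sites is shown for the first members that lay in a peak of both populations, 2 for each same-direction class and 1 for each opposite class. Names are those of the protein-coding gene with the nearest transcription start site. The strand is the plus strand of GRCm38.p6 from RefSeq (the build that mm10 names), each stretch is 120 bases long, and capitals mark a match to one of the motifs defined further on.
Cdk5rap1, higher at both times, chr2:154354091-154354210: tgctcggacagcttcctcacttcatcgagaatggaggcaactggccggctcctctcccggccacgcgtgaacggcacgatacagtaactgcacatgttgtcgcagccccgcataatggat
Olfr1324, higher at both times, chrX:50410541-50410660: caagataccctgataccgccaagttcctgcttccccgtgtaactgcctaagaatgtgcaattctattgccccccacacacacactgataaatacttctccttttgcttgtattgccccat
Daxx, lower at both times, chr17:33910591-33910710: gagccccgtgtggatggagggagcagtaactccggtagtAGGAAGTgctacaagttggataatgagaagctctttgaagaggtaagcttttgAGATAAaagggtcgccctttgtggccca
5730507C01Rik, lower at both times, chr12:18610316-18610435: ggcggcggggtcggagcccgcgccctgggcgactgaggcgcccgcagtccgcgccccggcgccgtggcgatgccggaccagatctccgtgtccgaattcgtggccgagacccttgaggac
Drosha, higher and then lower, chr15:12858816-12858935: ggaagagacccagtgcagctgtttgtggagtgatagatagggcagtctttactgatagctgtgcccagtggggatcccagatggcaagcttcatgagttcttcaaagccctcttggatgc
Ccser1, lower and then higher, chr6:61293391-61293510: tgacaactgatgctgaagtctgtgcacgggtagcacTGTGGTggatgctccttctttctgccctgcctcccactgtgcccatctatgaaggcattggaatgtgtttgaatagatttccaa
Of the 120 bases near Olfr1324, all 120 are masked as repeat in the reference, against 0 near Cdk5rap1, 5730507C01Rik and Drosha. The Daxx stretch holds a short ETS match and a Gata match within the gene that the mice lose.

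Values are scaled reads, the number of reads of a library at a site divided by that library's constant in the table header. On average the Daxx-KO and Daxx-WT libraries of the 2 compared populations had 4.21 to 9.60 reads per window of 600 bp. The lowest depth was in the second Daxx-KO library of each population (4.21 in LT-HSCs and 4.54 in KLS cells). The DKO libraries had 9.98 and 16. Within a group, libraries are numbered here in the order of the header. The study describes its genomic data as biological replicates. The populations were checked against peaks at the promoters of marker genes. Kit, Mecom and Flt3 had a peak in both LT-HSC lists and all 3 KLS lists, Ly6a (which encodes Sca-1) had none in any of the 5, and Slamf1 (CD150) had one only in Daxx-KO LT-HSCs. Of the markers of other cells, Cd79a, Cd3e, Ly6g, Siglech and Ncr1 had no promoter peak in these 5 lists, whereas Itgam had one in 3.

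Most members differed in the same direction at both times. Of 699 members, 318 (45.5%) were lower in Daxx-KO at both times, 229 (32.8%) were higher at both, 98 (14%) were higher in LT-HSCs and lower in KLS cells, and 54 (7.73%) were lower in LT-HSCs and higher in KLS cells. The same-direction classes thus held 547 members, or 78.3%. Most KLS sites were lower to begin with: 80.9% of all 17311 were lower and 19.1% higher. Of the 372 members lower in LT-HSCs 85.5% were lower in KLS cells, close to that balance, and of the 327 members higher in LT-HSCs 70% were higher in KLS cells. The same-direction share was 262 of 287 (91.3%) where the ratio was at least 1 log2 unit in size in both tables. That cut used the ratios that also set the directions, and the balance of all KLS sites under it was not computed. Sites that were higher in LT-HSCs recurred in the KLS table more often (9.41% of 3476) than sites that were lower (4.4% of 8451), and of the KLS sites 8.49% of 3308 higher and 2.94% of 14003 lower sites met an LT-HSC site. Longer sites meet others more readily, and the median member was 800 bp long in LT-HSCs and 750 bp in KLS cells, with a shared stretch of 550 bp.

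**Figure D1:**
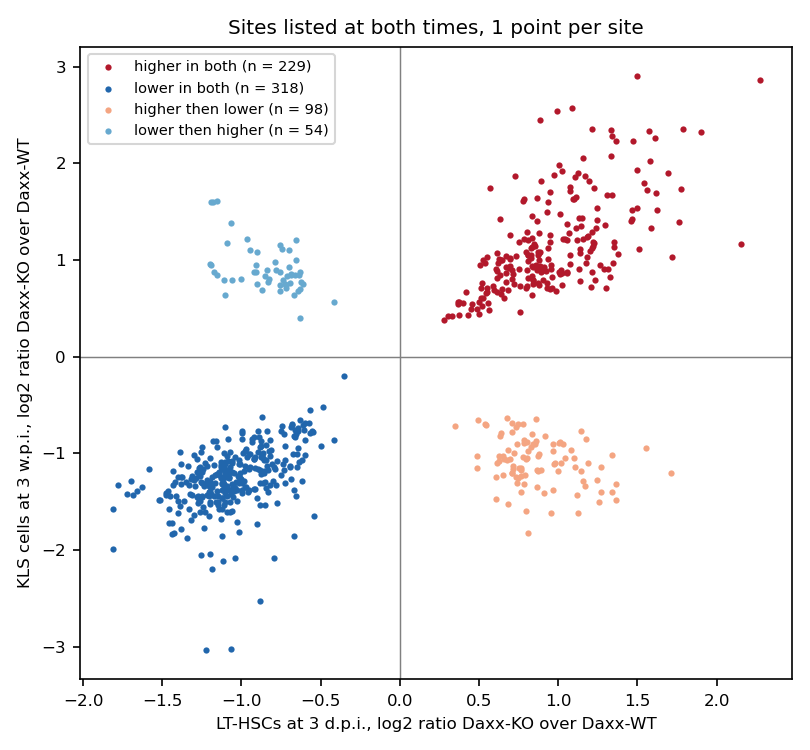
Each of the 699 points is a member, with the log2 ratio of Daxx-KO over Daxx-WT in LT-HSCs at 3 d.p.i. on the x axis and in KLS cells at 3 w.p.i. on the y axis, coloured by class. The empty band around both axes follows from the selection, since a site had to differ to be listed, and the upper right and lower left quadrants hold 547 of the points.

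The groups did not overlap at 695 members in LT-HSCs and at 690 in KLS cells, which was close to the background of 99.5% and 99.6% over all listed sites of the 2 tables and reflects the selection. The median ratios were 0.91 and 1.04 for members higher at both times (LT-HSCs and KLS cells, log2) and -1.08 and -1.25 for those lower at both. They were 0.81 and -1.07 for those higher and then lower, and -0.77 and 0.85 for those lower and then higher. These ratios depend on the constants in the headers: scaling each library to its mean reads per window instead raised the median ratio of all members by 0.43 in LT-HSCs and 0.54 in KLS cells, and 3 members then had another direction. Of the 106 ratios of named members, 33 were then smaller by over 1.5 times, and all 33 were below 0. In units of the mean window of the same library, and after correction for length, the median member higher at both times stood at 11.3 in Daxx-KO and 4.18 in Daxx-WT LT-HSCs and at 11.8 and 3.51 in KLS cells. The median member lower at both times went from 4.03 in Daxx-WT to 2.44 in Daxx-KO LT-HSCs and from 3.39 to 1.88 in KLS cells.

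The members that were higher at both times were led by a site in Cdk5rap1, which encodes an enzyme that modifies mitochondrial transfer RNAs. The LT-HSC site (chr2:154353351-154356300) had 467, 209 and 278 scaled reads in Daxx-KO against 71 and 59.1 in Daxx-WT libraries, a log2 ratio of 2.27. The KLS site had 197, 139 and 99.7 against 7.30 and 30.9, a ratio of 2.86 that ranged from 2.19 to 4.14 when single libraries were left out, the highest value being without the second Daxx-WT library. No Daxx-WT library reached a Daxx-KO library at either time. A peak lay over the shared stretch in all 5 Daxx-KO lists and in 2 of the 5 Daxx-WT lists, those of LT-HSCs and GMPs (granulocyte and monocyte progenitors) with no time label.

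Several of the next members of this class lay between genes and were made mostly of repeated sequence, while others ranked among them were not all of this kind and follow below. The site on chromosome X nearest to Olfr1324 (an olfactory receptor gene 15982 bp away) had 96.3, 81.1 and 70.7 reads in Daxx-KO against 9.01 and 33.8 in Daxx-WT LT-HSCs. In KLS cells it had 45.6, 88.3 and 68.7 against 12.8 and 12.6. The ratios were 1.90 and 2.32, all Daxx-KO libraries were above all Daxx-WT libraries, and a peak was found in the 5 Daxx-KO lists and in none of Daxx-WT or DKO. In LT-HSCs the ratio ranged from 1.27 without the first Daxx-WT library to 3.06 without the second. Near Frk, a tyrosine kinase gene whose start lies 216118 bp away, LT-HSC values were 151, 123 and 71.8 against 42.8 and 22.5 (ratio 1.79). The KLS values there were 106, 174 and 173 against 31 and 26.4 (ratio 2.36). Repeats covered 91.7% and 100% of the 300 bp around the centres of these last stretches. The member between genes nearest to Lrfn5, which encodes an adhesion molecule of synapses, had ratios of 1.58 and 2.02 with 93.7% repeat, and that nearest to Kap, an androgen-regulated kidney gene, 1.61 and 2.26 with 98%. The low counts near Kap (4.51 and 10.3 reads in Daxx-WT LT-HSCs) leave its ratios less certain, from 1.18 to 2.22 and from 1.78 to 2.98 when single libraries were left out.

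Repeat content varied among other members of the class. A member near Fndc1 (a fibronectin-domain protein) had ratios of 1.70 and 1.90 with 0 masked bases. An intronic member of Bicral, which encodes a subunit of a SWI/SNF chromatin remodelling complex, had 164, 237 and 148 reads against 65.4 and 52.5 in LT-HSCs and 105, 181 and 193 against 44.7 and 52.7 in KLS cells. Its ratios were 1.62 and 1.69 and the groups did not overlap. Near Mrc1, the macrophage mannose receptor gene, the ratios were 1.77 and 1.73, and the latter ranged from 1.28 to 2.38 when single libraries were left out. Fbp2, which encodes the muscle form of fructose-bisphosphatase, was the only gene of the lists used here with a member of this class: the site by its promoter, entirely masked as repeat, had 269, 262 and 222 against 153 and 184 reads in LT-HSCs (0.57) and 160, 253 and 226 against 67.5 and 58.5 in KLS cells (1.74).

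**Figure D2:**
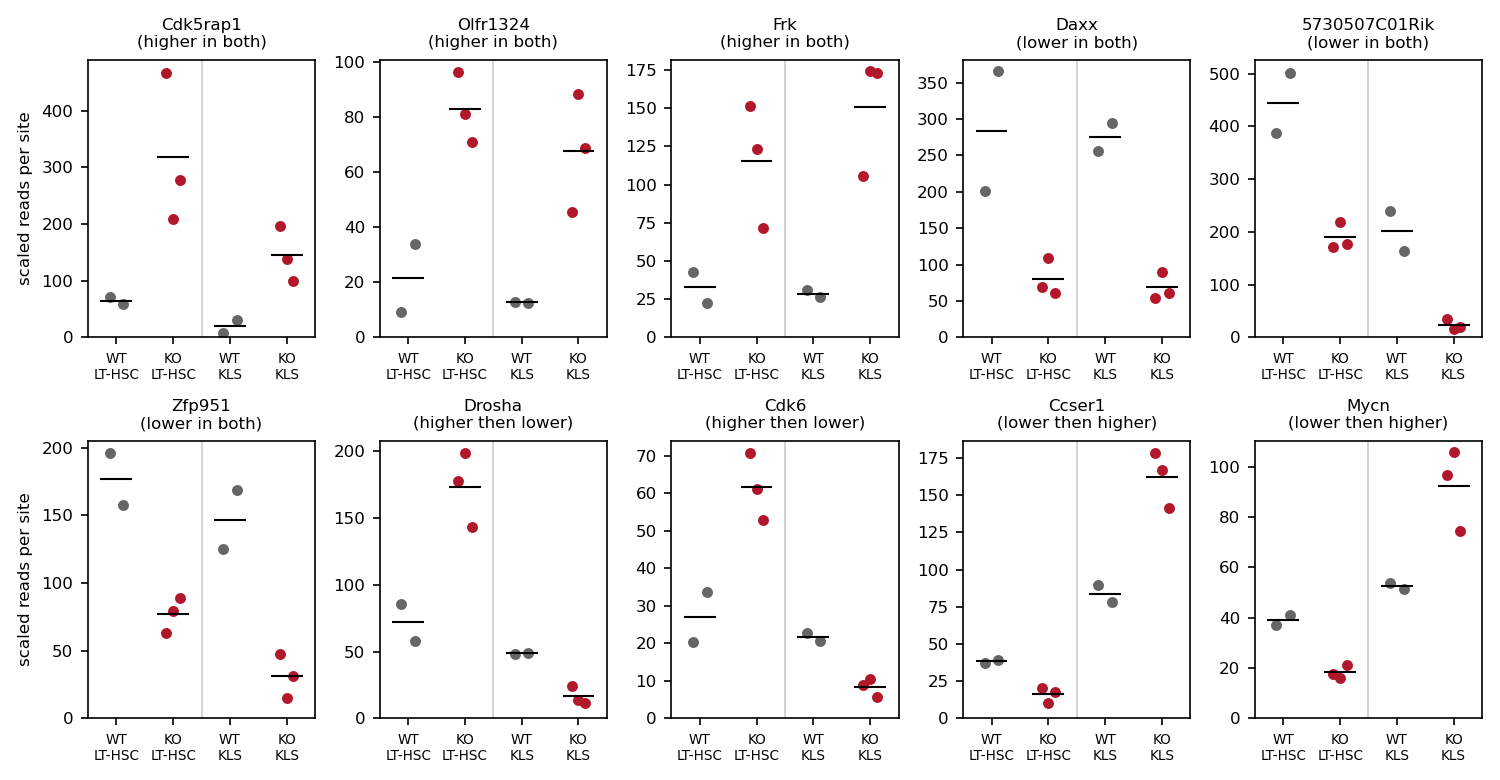
Scaled reads per site (linear axes that start at 0, one scale per panel) of single libraries for 10 named members, with grey points for Daxx-WT and red points for Daxx-KO, LT-HSCs at 3 d.p.i. left and KLS cells at 3 w.p.i. right of the grey line. Black bars are group means, and in every panel the red and grey points of a population are separated, with the sign reversed between populations for Drosha, Cdk6, Ccser1 and Mycn. Levels are not compared across the grey line, since the tables were scaled apart and their sites differ in length.

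Repeated sequence, which the rule did not use, was more frequent among members higher at both times than in the other classes, by shares that were not tested. Sites were called repeat-rich when over 50% of the 300 bp at their centre was soft-masked in the reference, a mark of interspersed and simple repeats that does not name the family. Of the LT-HSC sites of these members 21.4% were repeat-rich, against 8.73% of the 3149 LT-HSC sites that were higher and not members. The corresponding KLS sites gave 20.4% against 8.49% of 3027. Members lower at both times gave 10.1% in LT-HSCs and 9.55% in KLS cells, and the other lower sites 12.2% and 14.2%. The classes of opposite direction had 7.14% (higher and then lower) and 3.70% (lower and then higher) repeat-rich LT-HSC sites. Peaks of Daxx-WT cells were rarely repeat-rich, at 2.51% in LT-HSCs and 1.92% in KLS cells. Among the 155 members higher at both times that lay in peaks of both populations, 23.2% were repeat-rich. How the authors assigned reads with several possible positions is not given in the sources used here, and its part in these values was not tested.

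The highest read numbers of all members belonged to a ribosomal locus on chromosome 17, where 3 LT-HSC sites between 39842451 and 39849350 shared 1 KLS site. The nearest protein-coding gene was Esp38, over 100 kb away, but the stretch holds the gene models Gm26917 and Gm42418 and the rRNA model CT010467.1. Its middle LT-HSC site had 21679, 26968 and 22240 reads in Daxx-KO against 17856 and 18847 in Daxx-WT libraries, a ratio of 0.36. The KLS site had 63257, 49480 and 58935 against 38934 and 38370, a ratio of 0.57. These are among the smallest ratios of the class, and libraries of the 2 genotypes were still separated at both times. Ribosomal DNA is present in many copies, so the reads of this site need not all come from this place.

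Members lower at both times were led by Daxx itself, the gene that was floxed. The site was selected because these groups differed, so its values are no independent check of the genotype labels. The LT-HSC site over the promoter and the first exons of Daxx had 69.7, 109 and 61.2 reads in Daxx-KO against 201 and 366 in Daxx-WT libraries, a ratio of -1.81. The KLS site had 54.6, 90.1 and 61.1 against 255 and 295, a ratio of -1.99. The DKO table listed the gene too, with 97.6 and 74 against 263 and 302. The floxed exons are missing from the DNA of recombined cells, so loss of DNA and loss of accessibility cannot be told apart at this member. All Daxx-KO and DKO libraries lay below the Daxx-WT libraries beside them. The Daxx-WT LT-HSC libraries differed from each other (201 and 366). The LT-HSC ratio was -2.18 without the first of them and -1.32 without the second. Whether one of them is the Daxx +/F control was not tested, so the site does not check the Daxx +/+ label.

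The lowest ratio at 3 w.p.i. was at a pseudogene model, Gm48398, on chromosome 12 (chr12:18609301-18611450, nearest protein-coding gene 5730507C01Rik, 95829 bp away). Both tables listed exactly the same 2150 bp. LT-HSCs had 172, 220 and 177 reads in Daxx-KO against 388 and 502 in Daxx-WT, and KLS cells had 34.5, 16.6 and 19.8 against 240 and 163. The ratio was -1.23 at 3 d.p.i. and -3.04 at 3 w.p.i. The promoter of Zfp951, a zinc finger gene, followed the same order: 63.3, 79.2 and 88.7 against 196 and 158 in LT-HSCs (-1.19), then 47.9, 14.9 and 31 against 125 and 168 in KLS cells (-2.20). A peak over Zfp951 was in all 5 Daxx-WT lists and in 1 of the 5 Daxx-KO lists, that of LT-HSCs without a time label. The DKO table listed both sites, with ratios of -1.68 and -1.98 against the same Daxx-WT KLS libraries. A further member at the lincRNA model Gm5784 (nearest gene Gm21863) had ratios of -1.81 and -1.57.

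Most other members of this class were weak sites outside every peak. Of 318 members, 209 (65.7%) lay in none of the 11 lists, against 15 of 229 (6.55%) of those higher at both times. This share was not computed for lower sites that were not members. At 3 d.p.i. the lists covered even fewer of those LT-HSC sites, 9.37% (Daxx-KO) and 12.1% (Daxx-WT) of whole sites. For members lower at both times they covered 15.7% and 18.9%. An intronic member of Nkain1, whose product interacts with the sodium pump, had 7.34, 7.64 and 13.7 reads against 31.6 and 27.2 in LT-HSCs (-1.52) and 15.6, 8.75 and 9.41 against 31.9 and 34.4 in KLS cells (-1.48). An intronic member of Ror2, a receptor for Wnt5a, had ratios of -1.44 and -1.84. The latter rested in part on 1.75 reads in the second Daxx-KO library, and it ranged from -2.27 to -1.39 when single libraries were left out. Members in introns of Slco3a1 (an organic anion transporter) and Commd10 and between genes near Mucl2 and Fam110c had ratios from -1.51 to -1.44 in LT-HSCs and from -1.72 to -1.48 in KLS cells, with no peak in any list.

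Genes of blood cell function among the lower members were taken from lists of 172 genes, of which 18 had a member. Of 21 stem cell factors, 6 had a member, and 2 of these members were lower at both times. The share of all annotated genes with a member was not computed, so these counts do not set the lists apart. In an intron of Prdm16, a regulator of stem cell maintenance, the values were 13.8, 4.77 and 10.6 against 28.2 and 22.5 in LT-HSCs and 15.6, 8.75 and 8.47 against 20.1 and 35.5 in KLS cells (ratios -1.30 and -1.27). The KLS ratio was -0.82 without the second Daxx-WT library. This member lay in no peak, and the groups did not overlap at either time. Among 25 lymphoid genes, members in introns of Bcl11a (-1.05 and -1.39) and Gata3 (-0.95 and -1.38) were lower at both times. The KLS value of Bcl11a rested on 1 Daxx-WT library with 67.6 reads against 27.4 in the other, and without the former the ratio was -0.62.

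Cell cycle and silencing genes followed. Ccnd2, which encodes cyclin D2, had 2 members lower at both times. That at its promoter had 33, 33.4 and 37 against 65.4 and 58.1 reads in LT-HSCs (-0.82) and 25.6, 23.6 and 33.9 against 41 and 69.9 in KLS cells (-0.98). The latter was -0.55 without the second Daxx-WT library and -0.41 with libraries scaled to their mean reads per window. The intronic one had -0.95 and -1.16. At the promoter of Dnmt3a, a DNA methyltransferase that limits stem cell self-renewal, the ratios were -0.97 and -0.96, but the sites shared only 50 bp. Vwf, the von Willebrand factor gene expressed in platelet-biased stem cells, had 37.6, 34.4 and 48.6 against 83.4 and 70.3 in LT-HSCs (-0.92) and 33.4, 23.6 and 22.6 against 51.1 and 44.7 in KLS cells (-0.83). No list gene other than Ccnd2 had more than 1 member.

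Some genes gathered several members, which were singled out after their values had been seen. Of 640 genes nearest to a member, 593 had 1 and 8 had 3 or more. Cd69, which encodes an early activation receptor of lymphocytes, was nearest to 4 members between 37941 and 44366 bp from its start, at the lincRNA model 2310001H17Rik, and all 4 were lower at both times, with ratios from -0.98 to -0.62 in LT-HSCs and from -1.29 to -0.76 in KLS cells. The most accessible of them had 188, 162 and 147 against 275 and 283 reads in LT-HSCs and 159, 180 and 151 against 264 and 293 in KLS cells. Coro2a, a gene of the actin-binding coronin family, held 3 members in 6.8 kb, all higher at both times (from 0.88 to 1.19 and from 1.28 to 1.82). Ttc7b had 3 that were lower at both times, from -1.09 to -0.82 and from -1.33 to -1.22. Around Ccr7, a chemokine receptor gene, the 4 members fell into all 4 classes, and a pair of neighbours went opposite ways in LT-HSCs within 1 KLS site that was higher (143, 113 and 120 against 78.5 and 65.3). Tcp10c on chromosome 17 was nearest to 5 members over 175.2 kb, of which 4 were lower and 1, with 1225, 1286 and 1043 against 428 and 481 reads in LT-HSCs, was higher at both times. Members that shared a KLS site are not independent observations of the KLS cells.

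Opposite directions were seen at 152 members, of which 98 were higher in LT-HSCs and lower in KLS cells. The first by rank was a site at the pseudogene model Gm9077 (nearest gene Rab10), with 94.5, 91.6 and 88.7 reads against 36.1 and 33.8 in LT-HSCs (1.37) and 12.2, 7 and 7.53 against 24.6 and 28.7 in KLS cells (-1.48). In an intron of Drosha, which encodes the nuclease that starts microRNA processing, LT-HSCs had 178, 199 and 144 against 85.6 and 58.1 (1.26). KLS cells had 24.5, 14 and 11.3 there against 48.4 and 49.3 (-1.50). Here the sites of 1400 and 1050 bp shared 250 bp at their edges, and the values of both need not come from the same stretch.

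Further members of this class lay in or near genes of stem cell and lymphoid regulation. Cdk6, the cyclin D-dependent kinase that governs exit from quiescence in stem cells, had an intronic member with 70.7, 61.1 and 52.8 against 20.3 and 33.8 (1.16), and then 8.91, 10.5 and 5.64 against 22.8 and 20.6 (-1.28). An intronic member of Erg, an ETS factor required by stem cells, had ratios of 0.78 and -1.03 with a Gata match at the centre of the shared stretch. Hoxb4, a homeobox gene that expands stem cells, had 0.71 and -0.78, and Tcf7, a Wnt-responsive factor of T cells, 0.86 and -0.64. With libraries scaled to their mean reads per window the KLS ratios were -0.26 for Hoxb4 and -0.04 for Tcf7, and the LT-HSC ratio of Hoxb4 was 0.46 without the first Daxx-WT library. Hoxb4 and Tcf7 were the members of this group that lay in peaks of both Daxx-WT and Daxx-KO cells of both populations. The interferon-stimulated gene Oas2 had 0.87 and -1.03, with 84.4, 69.7 and 75 against 45.1 and 37.5 and then 22.3, 13.1 and 20.7 against 39.2 and 39, and it was the only one of 36 interferon genes and sensors with a member. Near Egr1, an immediate early factor that restrains stem cell proliferation, LT-HSCs had 1014, 1041 and 843 against 620 and 647 (0.61). The KLS site there was a weak one at the edge, 21.2, 7 and 10.3 against 39.2 and 35.5 (-1.47), and it shared 500 bp with an LT-HSC site of 2500 bp.

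The remaining 54 members were lower in LT-HSCs and higher in KLS cells. An intronic member of Ankrd11, a chromatin regulator, had 34.9, 32.5 and 25.3 against 69.9 and 74.1 (-1.19), and then 23.4, 17.5 and 16 against 5.47 and 5.73 (1.60). One in Hivep3, a zinc finger gene, had 13.8, 7.64 and 11.6 against 27 and 25.3 (-1.18), and then 32.3, 65.6 and 21.6 against 14.6 and 10.3 (1.60, or 1.05 without the second Daxx-KO library). The intronic member of Ccser1 had 20.2, 10.5 and 17.9 against 37.2 and 39.4 in LT-HSCs (-1.19), and then 178, 167 and 141 against 89.4 and 78 in KLS cells (0.95). List genes with a member of this class were Mycn (a Myc family factor used by stem cells, -1.06 and 0.80), Ccnd3 (cyclin D3, -0.87 and 0.69) and Fli1 (an ETS factor, -0.63 and 0.77). With libraries scaled to their mean reads per window the LT-HSC ratios were -0.34 for Ccnd3 and -0.15 for Fli1. The member near Mycn, 118591 bp from its start, had 17.4, 16.2 and 21.1 against 37.2 and 41.3, and then 96.9, 106 and 74.3 against 53.8 and 51.6. Of 15 cell cycle genes, Ccnd2, Ccnd3 and Cdk6 thus had members in 3 different classes.

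Members higher and then lower shared the smallest part of their sites. The shared stretch covered a median of 63.4% of the shorter site for those higher and then lower and 75% for those lower and then higher, against 100% for those higher and 75% for those lower at both times. Where the centre of the LT-HSC site had to lie inside the KLS site, 505 members were left, of which 83.8% had the same direction, and those higher and then lower fell from 98 to 45. The members closest to the limit show how little was shared. Dnmt3a and Gata3 each shared 50 bp, as did 27 members in all. Just outside, 25 pairs of sites touched with a gap of 0 bp and no shared base, of which the first 5 in the order of the chromosome names were near Fyn (-0.81 and -1.44) and Kdm6b (-0.61 and -0.89), with the same direction, and near Nlgn2 (0.27 and -0.80), Grb2 (0.56 and -0.65) and Id2 (-1.14 and 0.87), with opposite directions.

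Peak lists located the classes in open chromatin. A peak of the Daxx-KO cells covered the shared stretch of 76.9% (LT-HSCs) and 78.6% (KLS cells) of members higher at both times, against 37.6% and 30.1% for the Daxx-WT lists, but these lists come from the libraries that chose the members. For members lower at both times the Daxx-KO lists covered 11.6% (LT-HSCs) and 9.12% (KLS cells), against 16.4% and 13.8% for the Daxx-WT lists. Sites that were not members had the same order. Over whole sites, the Daxx-KO and Daxx-WT lists covered 64.3% and 31.8% of the other higher LT-HSC sites, against 78.2% and 39.7% of the members higher at both times. They covered 9.37% and 12.1% of the other lower LT-HSC sites, against 15.7% and 18.9% of the members lower at both times. Across the lists of both genotypes, 238 members (34%) lay in a peak of both populations, 155 of them higher at both times, and 330 lay in no peak of either, 255 of them lower at both times. The same-direction share was 81.9% in the first set and 85.5% in the second. Peaks in all 11 lists were found at 42 members, 36 of which were higher at both times.

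**Figure D3:**
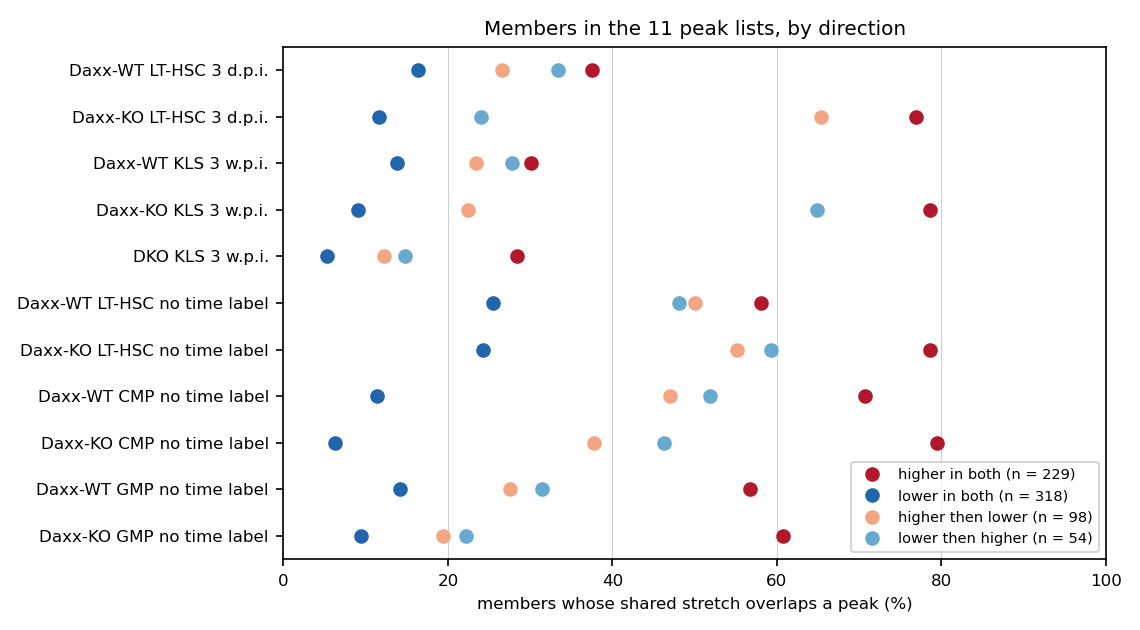
The x axis gives the percentage of members whose shared stretch overlapped a peak, by class, in each of the 11 deposited lists on the y axis. Members higher at both times have the highest share in each list and those lower at both times the lowest, and each opposite class has its largest gap between genotypes in the population where it was higher (65.3% against 26.5% in LT-HSCs and 64.8% against 27.8% in KLS cells).

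Peak lists that carry no time label, of LT-HSCs, of CMPs (common myeloid progenitors) and of GMPs, came from libraries that the rule did not use, 2 per genotype, with 1 list per genotype and so no replicates. The study's methods describe ATAC-seq of these 3 populations from RosaCreER mice at 3 w.p.i. In these LT-HSCs 49 of the 229 sites higher at both times (21.4%) had a peak that only the Daxx-KO list held, and 2 (0.873%) one that only the Daxx-WT list held. For LT-HSC sites that were higher but not members, the shares were 8.64% and 2.89%. In CMPs these shares of the members were 10.5% and 2.18%, and in GMPs 9.61% and 6.11%. The other higher sites went the opposite way there, with 2.92% and 13% in CMPs and 1.40% and 7.81% in GMPs. The Daxx-WT lists of CMPs and GMPs are the longer ones (66070 against 50590 peaks and 65306 against 49677), while in LT-HSCs the Daxx-KO list is longer (70455 against 65455). Among the 318 sites lower at both times, 10 had a peak of the Daxx-KO list only and 15 one of the Daxx-WT list only in LT-HSCs, 4 and 23 in CMPs and 0 and 20 in GMPs. As shares these were 3.14% and 4.72% in LT-HSCs, 1.26% and 7.23% in CMPs and 0% and 6.29% in GMPs. The lower sites that were not members gave 2.74% and 1.39% in LT-HSCs, 0.904% and 3.52% in CMPs and 0.532% and 3.12% in GMPs. With 1 list per genotype, none of these differences carries an error.

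**Figure D4:**
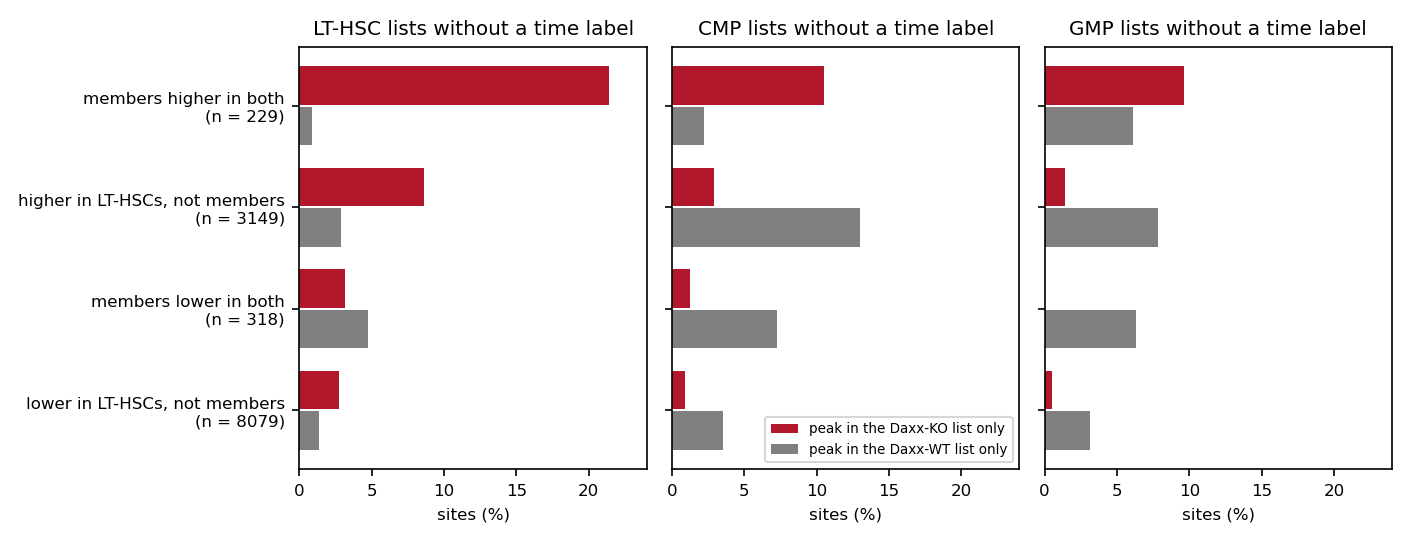
Bars give the percentage of whole LT-HSC sites that overlapped a peak in the Daxx-KO list only (red) or the Daxx-WT list only (grey) of 3 populations (LT-HSCs, CMPs, GMPs) that carry no time label, for members and for other sites of the same direction. For members higher at both times the red bar is the longer in all 3 populations, whereas for the other higher sites it is the shorter in CMPs and GMPs.

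The DKO table shares its Daxx-WT libraries with the Daxx-KO KLS table, so its values are given beside the others and not as further evidence. It listed 182 members, 95 higher (13.6%) and 87 lower (12.4%) in DKO than in Daxx-WT, where 9.19% and 6.58% of all LT-HSC sites met a DKO site of these directions. Of the members higher at both times, 66 were higher and 18 lower in DKO. Of those lower at both times, 44 were lower and 19 higher. Whole KLS sites of members higher at both times met a higher DKO site in 29.8% and a lower one in 8%. For higher KLS sites that were not members these shares were 15.4% and 8.89%. KLS sites of members lower at both times met a lower DKO site in 13.7% and a higher one in 8.28%. Lower KLS sites that were not members gave 6.01% and 5.72%. The site in Cdk5rap1 had 87 and 87.1 reads in DKO against 7.10 and 27.4, and Bicral had 102 and 88.1 against 39.9 and 45. At Fbp2 the direction turned, with 20.1 and 15 in DKO against 47 and 37.3, and at Bcl11a DKO had 66.8 and 64.6 against 17.8 and 37.3. These values depend on the constants as well. After scaling by them the mean window held 10.6 and 15.0 reads in DKO against 7.39 and 8.19 in Daxx-WT libraries. DKO values under another scaling were not computed.

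By position the members resembled the tables they came from. Of 699 shared stretches, 574 (82.1%) were distal, over 1000 bp from every annotated start site, and whole LT-HSC sites of members were distal in 81% (higher) and 79.6% (lower), against 77.4% and 83.6% for the sites that were not members. Introns held 273 members, 190 lay between genes, 125 at promoters, 65 over exons and 46 in other gene models. Of the members higher at both times 37.1% lay between genes and 4.80% over exons, and of those lower at both times 20.4% and 14.5%. Members were found on 21 chromosomes, most on chromosome 4 (60, or 8.58% of members against 7.90% of all LT-HSC sites) and chromosome 2 (58, or 8.30% against 8.81%).

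Short motifs were counted on both strands in the 300 bp at the centre of each LT-HSC site. The letters were TGTGGT for Runx, AGATAA for Gata, GAGGAAGT for Pu.1, AGGAAGT for a short ETS form that every Pu.1 match also contains, TGANTCA for AP-1, TTNNGCAA for C/EBP, AGGGGGC for a CTCF core, GAAACNGAA for IRF and GGGTTAGGG for the telomeric repeat. A Runx match was present in 46.7% of sites higher at both times, 33.6% of other higher sites, 27.6% of those higher and then lower, 35.2% of those lower and then higher, 20.1% of those lower at both times and 23.1% of other lower sites. On the KLS side the Runx shares were 42.7% of sites higher at both times and 37.3% of the higher sites that were not members. Gata matches had another order, with 36.7% of sites higher and then lower, 30.0% of other higher sites and 19.2% of sites higher at both times. On the KLS side a Gata match was found in 17.7% of sites higher and then lower, 15.1% of sites higher at both times and, of the sites that were not members, 12% of the higher and 14.2% of the lower. Peaks of Daxx-WT LT-HSCs held a Runx match in 22.5% and a Gata match in 10.1%. A match is a description of the sequence, and the part of site length and masking in these shares was not tested.

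**Figure D5:**
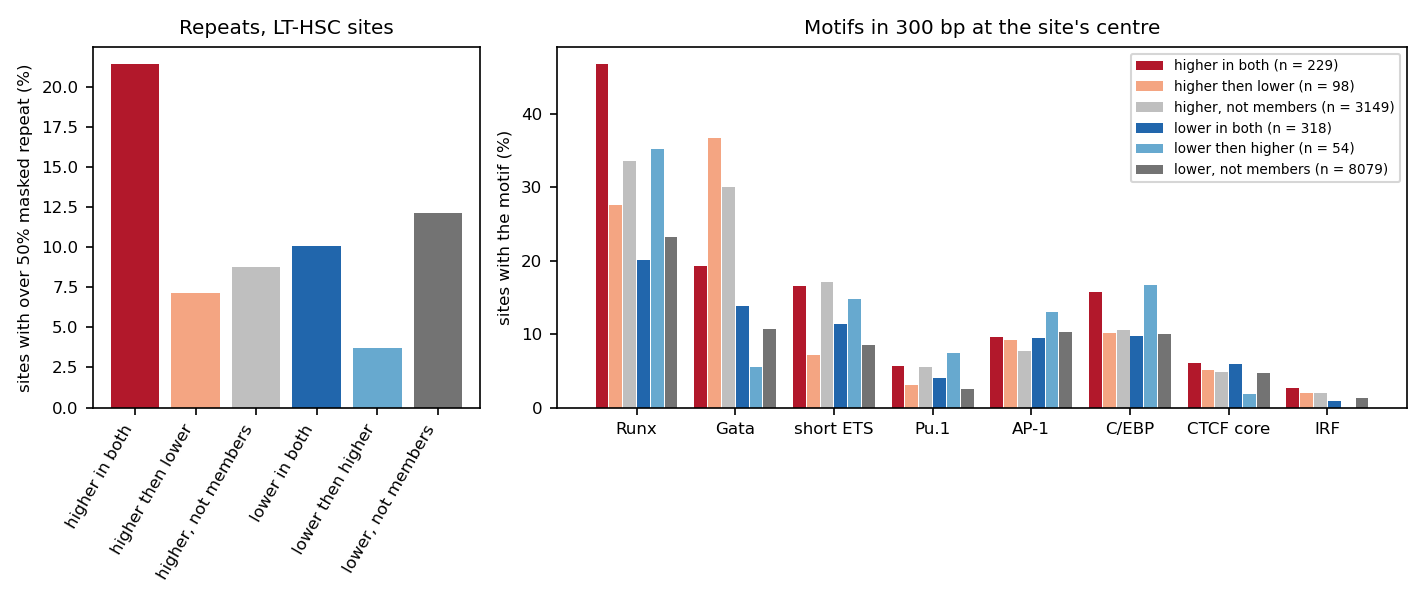
Left, the percentage of LT-HSC sites with over 50% masked repeat in the 300 bp at their centre, by class and for sites that were not members. Right, the percentage of the same sites with each motif, where Runx is highest in members higher at both times (46.7%) and Gata in members higher and then lower (36.7%).

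The Pu.1 motif was rare. It was present in 5.68% of LT-HSC sites higher at both times against 5.53% of other higher sites, and in 4.09% of those lower at both times against 2.54%. In the KLS sites the shares were 7.11% against 6.77% and 2.87% against 2.11%. One example of each direction is shown with 60 reference bases around the match in capitals, on the plus strand, where the second match reads on the minus strand.
Slc25a13, higher at both times, chr6:6149382-6149441: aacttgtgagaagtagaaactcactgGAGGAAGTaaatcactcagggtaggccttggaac
Sqle, lower at both times, chr15:59286649-59286708: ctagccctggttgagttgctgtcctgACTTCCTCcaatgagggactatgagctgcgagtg
The member near Slc25a13, a mitochondrial carrier gene, had 234, 194 and 153 reads against 94.7 and 71.3 in LT-HSCs (1.21) and 106, 126 and 151 against 66.6 and 49.3 in KLS cells (1.12). That near Sqle, which encodes an enzyme of cholesterol synthesis, had 11, 4.77 and 11.6 against 27 and 24.4 (-1.40) and 14.5, 4.37 and 3.76 against 26.4 and 24.1 (-1.62). Telomeric repeats were found in 3 of the 699 shared stretches.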

How the data were processed

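The files hold processed values, not reads. Per the labels, the authors used CASAVA 1.8.4, cutadapt 1.13, STAR 2.5.3 and bedtools on mm10, without stated roles. The authors made the 3 deposited tables of sites with diffReps 1.55.6, which slid windows of 600 bp in steps of 50 bp, tested them by a negative binomial model and joined those with p under 0.0001. The deposited signal of a library is its read count divided by a constant, per the file headers. Multiplied back, 100% of values below 20 reads were within 0.15 of whole numbers. The log2 fold changes and p-values of these tables are the authors' own comparisons and were not used. Of the deposited peak lists, 5 give a score, a fold enrichment ratio and −log10 p and q values per peak, and 6 give positions alone. The lists were used by overlap of at least 1 bp.

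The members, lists and rules were chosen with earlier results of these data known. Each member took the KLS site with the longest overlap (6 members had 2, always of 1 direction). Ratios were log2 of group means with a pseudocount of 1. No test was run. Named were, per class, the first 8 (same direction) or 6 (opposite) by the smaller of the 2 absolute ratios, the first 3 in peaks of both populations, all members in or nearest to a list gene, and any in Daxx or Spi1 (no member lay in Spi1), and some of these are not reported here. The lists were stem cell, myeloid, lymphoid, erythroid and megakaryocyte, interferon and sensor, cell cycle, Daxx partner and silencing genes, and loci the study shows. They had 6, 1, 3, 1, 1, 3, 2 and 1 genes with a member. Genes came from GENCODE release M 21, and sequence and masking from RefSeq GRCm38.p6. Software was pandas 2.3.3 and numpy 2.4.6 in Python 3.11.15, with samtools 1.23.1 and pysam 0.24.0 for sequence, SciPy 1.17.1 and matplotlib 3.10.9.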

Additional observations from a re-analysis of the deposited data

Results flagged for a closer look

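Opposite directions in the 2 populations, with every library of a group on the same side, were seen at 97 members that were higher in Daxx-KO LT-HSCs and lower in Daxx-KO KLS cells and at 53 with the reverse order. Such separation of the groups was found at 99.5% of all LT-HSC sites and 99.6% of all KLS sites, so it does not set these members apart. These members were chosen by those ratios, and the difference between the populations was not tested.

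Among the named members, the LT-HSC ratio minus the KLS ratio was 2.85 near Rab10, 2.74 in Gpr161 (a receptor that restrains hedgehog signalling), 2.68 near Rraga (a GTPase of amino acid sensing), 2.67 near Cpeb4 (an RNA-binding translation regulator) and 2.76 in Drosha. It was 2.44 in Cdk6, 2.12 in Shisa9, 2.08 near Egr1, 1.90 in Oas2, 1.81 in Erg, 1.5 near Tcf7 and 1.48 in Hoxb4. In the reverse order it was -2.79 in Ankrd11, -2.78 in Hivep3, -2.77 near Spata5, -2.45 near Laptm5 (a lysosomal protein of blood cells), -2.26 at Lsmem1, -2.19 near Spsb1 and -2.14 in Ccser1. It was -1.86 near Mycn, -1.80 in Fam160a1, -1.78 near Ubl3, -1.56 in Ccnd3 and -1.40 in Fli1. None of these differences was tested, and the member near 4930572O03Rik is left out because 1 Daxx-KO LT-HSC library (15.3 reads) fell below both Daxx-WT libraries (29.3 and 37.5) while the others had 110 and 96.1.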

How the results depend on the processing

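The counts by direction depended on how much overlap was asked for. With at least 50% of the shorter site shared, 555 members were left, of which 81.6% had the same direction and 62 were higher and then lower. With the LT-HSC centre inside the KLS site these values were 83.8% and 45. Scaling to the mean reads per window moved 58 of the 106 ratios of named members by more than the spread between libraries and turned 3 members, none of them named. Leaving out single libraries gave from 317 to 318 members lower and from 228 to 229 higher at both times, from 98 to 99 higher and then lower, and from 54 to 55 lower and then higher. Members inside peaks of both populations fell to 28% (59% of those higher and 8.18% of those lower at both times) when 50% of the shared stretch had to be covered. Distal shares with a limit of 2000 bp were 72.2% of all members, 77.3% for higher, 69.8% for lower and 64.3% for higher and then lower. Pu.1 matches in 600 bp at the centre of the shared stretch were found in 7.01% of members and in 11.4% of those higher at both times. In 300 bp these shares were 4.15% and 6.55%. At the centre of whole LT-HSC sites, 600 bp gave 9.17% of those higher at both times against 9.37% of other higher sites. Whole KLS sites gave 10.2% against 11.3%. No named member changed direction when a library was left out or the scaling changed. Depth limits the weak sites, where single libraries held fewer than 20 reads, and the peak lists have no known depth. No paired analysis was possible because the columns of the site tables carry no replicate number that could be matched to the labels, and no test was run.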
